A study of Homo sapiens with 24 samples.

Results

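The matrix metalloproteinases (MMPs) and the ADAMTS proteases were examined in U87-T glioblastoma cells that lack DAXX or ATRX, with and without etoposide. The members are the protein-coding genes of the count table whose symbol is MMP or ADAMTS followed by a number. ADAMTS-like proteins, which have no protease domain, and the TIMP inhibitors were not counted as members. The rule found 40 members, 21 MMP and 19 ADAMTS genes, among 57736 genes in the table. Of 42 protein-coding symbols of this form in the gene annotation, MMP12 and MMP28 were not analysed here.

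The cells were U87-T, the human glioblastoma line U87 carrying a TERT transgene. RNA was measured in 24 libraries, in a DAXX series and an ATRX series that each had their own WT libraries. Each series held WT control, WT etoposide, KO control and KO etoposide cells, with 3 libraries a group. The WT cells (sgControl) had received an empty Cas9 vector, and DAXX_KO and ATRX_KO were each 1 clone, made with CRISPR/Cas9 and isolated as survivors with features of alternative lengthening of telomeres. Effects of the gene and of the clone therefore cannot be told apart. Etoposide, a topoisomerase II inhibitor that causes DNA breaks, was given to both genotypes, and its dose and duration for these libraries were not given in the sources used here. Control cells are called untreated in the labels, and the study describes DMSO. One label field gives ATRX as the edited gene of the DAXX_KO libraries, and the sample titles were followed. The study calls its replicates biological in general terms, the labels only number the 3 libraries of a group, and p-values measure the spread between these libraries.

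MMPs and ADAMTS proteases are zinc enzymes that cut proteins of the extracellular matrix. They are made as inactive precursors, are activated by removal of a prodomain, and are held in check by TIMPs. MMPs are named for typical substrates or for their anchoring in the membrane, whereas the ADAMTS enzymes cut proteoglycans, procollagens and other matrix proteins. In glioblastoma, matrix proteases are known for their part in the invasion of brain tissue, which is rich in proteoglycans such as versican and brevican.

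Library totals ranged from 6928950 to 13298557 counts. Levels are given as CPM, counts scaled to a common library size within each series, so levels of the 2 series stand side by side only. These are bulk samples, in which fewer cells expressing a gene and less RNA per cell cannot be told apart. Three-prime end libraries yield about 1 read a transcript, so CPM was not divided by length. A count of 3 in a library, taken as the floor, stood at 0.217 to 0.405 CPM. DAXX fell in DAXX_KO control cells (log2 fold change -2.53, SE 0.15, edgeR adjusted p = 7.34e-11) and ATRX fell in ATRX_KO control cells (log2 fold change -1.25, SE 0.09, edgeR adjusted p = 9.38e-09). With etoposide DAXX was lower in DAXX_KO by less (log2 fold change -1.13, SE 0.15, edgeR adjusted p = 2.30e-06), and within DAXX_KO etoposide raised it (log2 fold change 0.76, SE 0.17, edgeR adjusted p = 0.00103). ATRX was also lower in ATRX_KO with etoposide (log2 fold change -1.32, SE 0.09, edgeR adjusted p = 5.83e-09). Of 9 glioma and mesenchymal markers, 4 exceeded a mean of 10 CPM (VIM, CD44, SOX9 and NES), GFAP and FABP7 stayed near 0, and S100B had 0 counts in all libraries. Summed markers of leukocytes, endothelium and epithelium did not exceed 3.81 CPM in any library, whereas 3 neuron markers summed to 14.3 to 58.2 CPM, mostly SYT1.

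Of the 40 members, 17 of the DAXX series passed the filter on low counts, as did 18 of the ATRX series. The 20 members that passed in either series were MMP1, MMP2, MMP3, MMP11, MMP14, MMP15, MMP16, MMP19, MMP24, ADAMTS1, ADAMTS2, ADAMTS4, ADAMTS5, ADAMTS6, ADAMTS7, ADAMTS12, ADAMTS13, ADAMTS15, ADAMTS16 and ADAMTS18. MMP1, MMP15 and MMP24 passed in the ATRX series only, and ADAMTS13 and ADAMTS15 in the DAXX series only. The other 20 members did not exceed 16 counts in any library. They included the gelatinase MMP9, the collagenases MMP8 and MMP13, and the procollagen N-propeptidases ADAMTS3 and ADAMTS14, and MMP27 had 0 counts in all 24 libraries. A member that passed through a group in which it is high had to differ between groups, so the counts below describe the members tested and not all members. No WT library reached the minimum count of 10 for ADAMTS13 or ADAMTS15 in the DAXX series, or for MMP15 in the ATRX series. These members passed the filter through KO libraries alone, which favoured a higher level in KO, so their p-values against WT are no independent evidence. ADAMTS2 in the ATRX series had too few WT libraries over the filter and passed only with KO libraries, which favoured a higher level in KO. MMP24 in the ATRX series and ADAMTS7 in the DAXX series passed through etoposide libraries alone, which favoured a rise with etoposide. Mean levels over the 24 libraries reached 10 CPM for 8 members. By this mean, MMP2 (167 CPM) and MMP14 (98.4 CPM) were followed by ADAMTS1 (69.0 CPM), ADAMTS5 (37.8 CPM), MMP16 (34.2 CPM), ADAMTS12 (20.4 CPM), ADAMTS6 (11.01 CPM) and MMP3 (10.5 CPM). These means mix 8 groups with unequal levels, and neighbours in this order were not tested against each other.

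**Figure D1:**
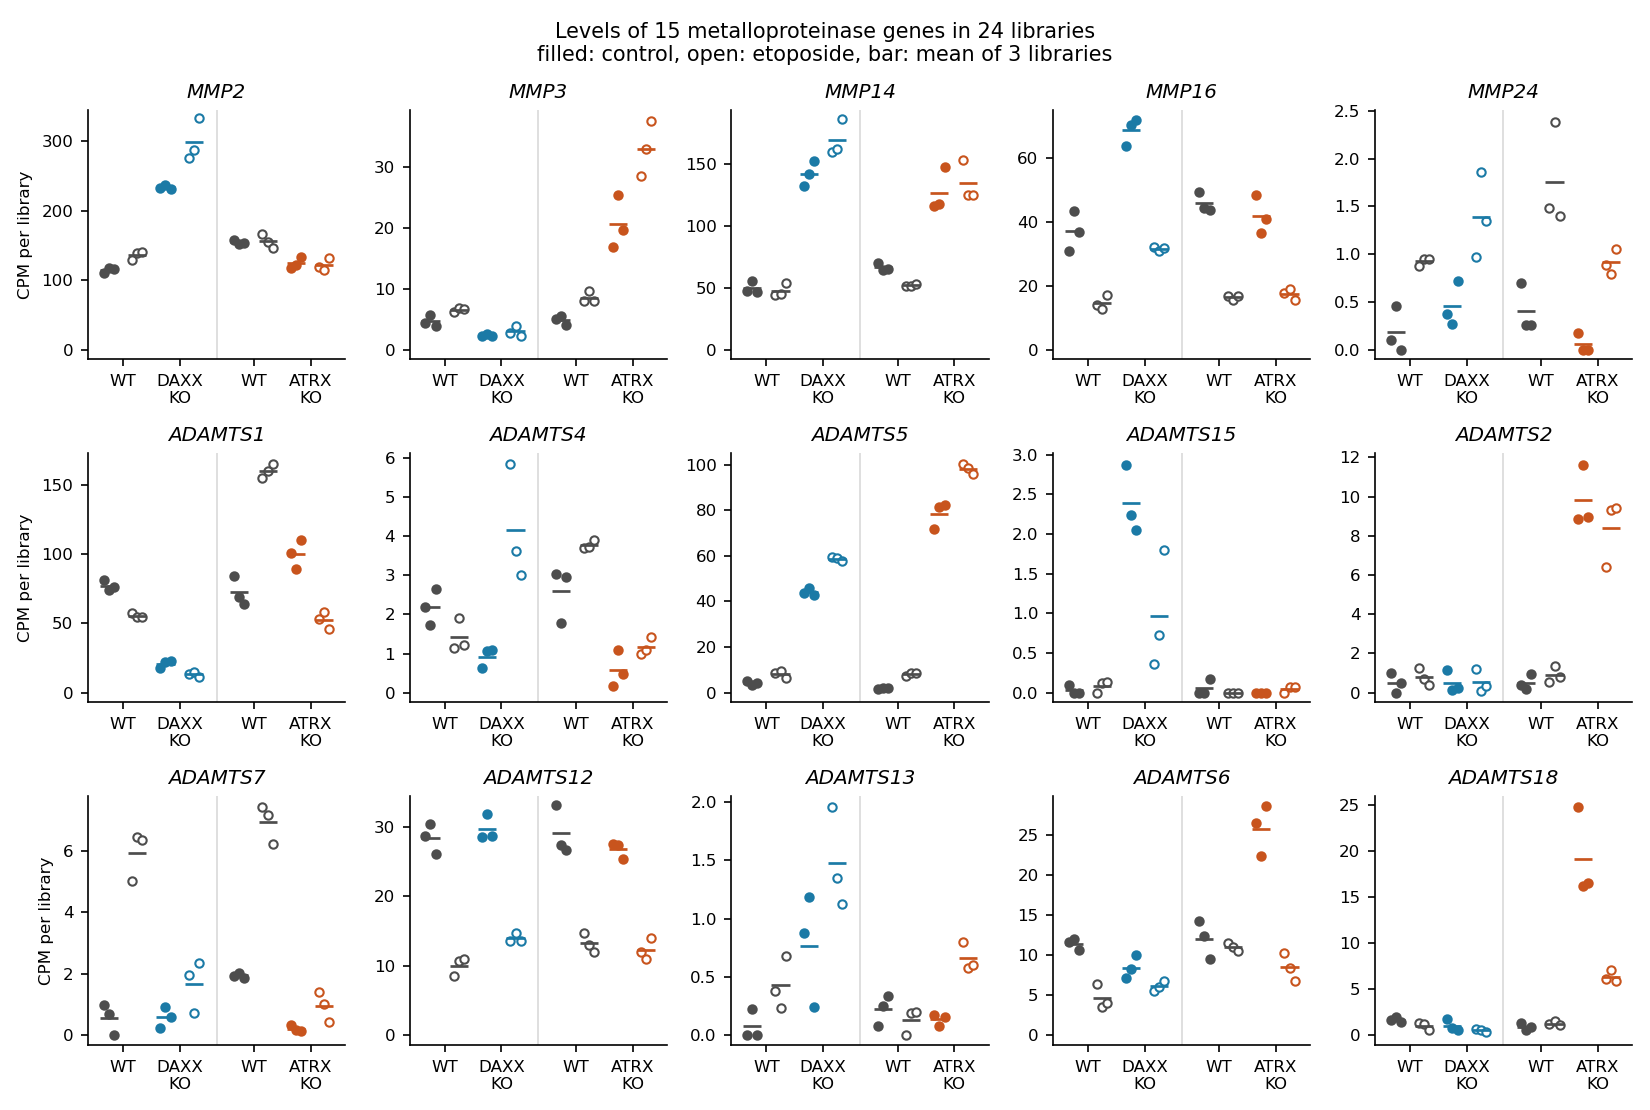
Level of 15 members in each library, in CPM on a linear axis that differs between panels, with the DAXX series on the left and the ATRX series on the right of each panel. Filled points are control and open points etoposide libraries, and bars are means of 3 libraries. ADAMTS5 is high in both knockouts, ADAMTS1 is low in DAXX_KO, and ADAMTS2 and ADAMTS18 are high in ATRX_KO.

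Promoter sequences were read for members whose level differed widely between the lines. RefSeq promoters of the GRCh38.p14 build matched 24 of the 40 members. No promoter was matched for MMP1, MMP2, MMP3, MMP9, MMP13, MMP16, MMP17, MMP19, MMP25, ADAMTS1, ADAMTS4, ADAMTS5, ADAMTS8, ADAMTS9, ADAMTS15 and ADAMTS16. The promoters of these members were thus not searched. Below are the 250 bases before the start of 4 genes, on the strand of the gene and 5′ to 3′, with CpG dinucleotides in capitals. ADAMTS2 and ADAMTS18 rose in ATRX_KO, ADAMTS7 fell there, and MMP14 rose in both knockouts.
ADAMTS2 promoter (chr5:179345462-179345711, minus strand): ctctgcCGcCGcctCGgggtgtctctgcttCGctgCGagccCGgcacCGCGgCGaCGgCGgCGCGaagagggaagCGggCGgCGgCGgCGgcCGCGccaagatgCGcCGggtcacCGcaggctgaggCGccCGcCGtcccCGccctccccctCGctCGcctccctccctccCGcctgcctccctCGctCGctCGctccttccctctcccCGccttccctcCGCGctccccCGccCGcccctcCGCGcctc
ADAMTS18 promoter (chr16:77435035-77435284, minus strand): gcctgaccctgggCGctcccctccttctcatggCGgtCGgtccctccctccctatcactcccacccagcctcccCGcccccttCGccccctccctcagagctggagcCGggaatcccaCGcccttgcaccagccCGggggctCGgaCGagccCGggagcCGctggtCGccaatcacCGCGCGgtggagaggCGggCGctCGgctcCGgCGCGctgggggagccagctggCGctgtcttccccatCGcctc
ADAMTS7 promoter (chr15:78811465-78811714, minus strand): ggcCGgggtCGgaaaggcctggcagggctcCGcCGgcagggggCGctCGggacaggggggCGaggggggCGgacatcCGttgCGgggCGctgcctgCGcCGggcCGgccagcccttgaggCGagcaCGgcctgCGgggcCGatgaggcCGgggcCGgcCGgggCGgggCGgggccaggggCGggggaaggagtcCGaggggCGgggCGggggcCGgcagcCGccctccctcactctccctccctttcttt
MMP14 promoter (chr14:22836335-22836584, plus strand): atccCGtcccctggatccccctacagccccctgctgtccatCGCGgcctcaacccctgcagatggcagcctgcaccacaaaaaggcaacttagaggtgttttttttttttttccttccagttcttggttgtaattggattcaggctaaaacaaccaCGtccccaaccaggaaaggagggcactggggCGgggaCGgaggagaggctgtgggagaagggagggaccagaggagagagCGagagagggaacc
The ADAMTS2 window held 40 CpG and 80.0% G or C, that of ADAMTS7 29 CpG and 80.8%, and that of ADAMTS18 24 CpG and 74.4%. The MMP14 window held 7 CpG and 56.8% G or C, and the medians over 27303 promoters were 11 CpG and 58.0%. Of the 24 matched members, 14 exceeded 11 CpG, with medians of 19 CpG and 68.2% G or C. Among them were MMP11 (22 CpG) and ADAMTS12 (21 CpG), which passed the test in neither knockout in control cells. A high CpG count was thus not particular to the members that differed between KO and WT in control cells. The AP-1 letters TGAGTCA, searched on both strands, were found in 1 of the 24 members, MMP7, at -67 to -61 from its start, and in 4.16% of all promoters. The TATA letters TATAAA, searched likewise, were found in 7 of the 24 members and in 11.1% of all promoters. Of these 7, 4 belong to the MMP cluster on chromosome 11. These matches are a description of letters, and methylation or binding at these windows was not analysed here.

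In control cells, the membrane-type MMP MMP14, its soluble partner MMP2 and the proteoglycanase ADAMTS5 were higher and ADAMTS1 was lower in DAXX_KO. Of the 17 members tested, 9 passed the test, 6 higher and 3 lower in DAXX_KO, where 53.4% of all genes tested passed (26.7% higher and 26.6% lower). The share of members was thus near that of all genes, and the median log2 fold change was 0.14 over the members tested and 0.02 over all genes. The members that rose were ADAMTS15, ADAMTS5, ADAMTS13, MMP14, MMP2 and MMP16, and those that fell were ADAMTS1, ADAMTS4 and MMP3. In ATRX_KO control cells, 14 of 18 members passed, 10 higher and 4 lower, where 41.8% of all genes passed (20.8% higher and 21.0% lower). Here the medians were 0.60 over the members tested and 0.02 over all genes. The members that rose were ADAMTS5, ADAMTS18, ADAMTS2, MMP1, MMP3, MMP15, ADAMTS6, MMP14, ADAMTS16 and ADAMTS1, and those that fell were ADAMTS7, MMP24, ADAMTS4 and MMP2. The 2 groups of libraries did not overlap for any of these 9 and 14 members, nor for 2 members that did not pass in DAXX_KO. This separation was not counted over all genes and adds no evidence to the test, since the same libraries entered both. When only the compared groups entered the fit, ADAMTS13 in DAXX_KO and MMP15 and MMP24 in ATRX_KO had too few counts for the filter and were not tested.

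**Figure D2:**
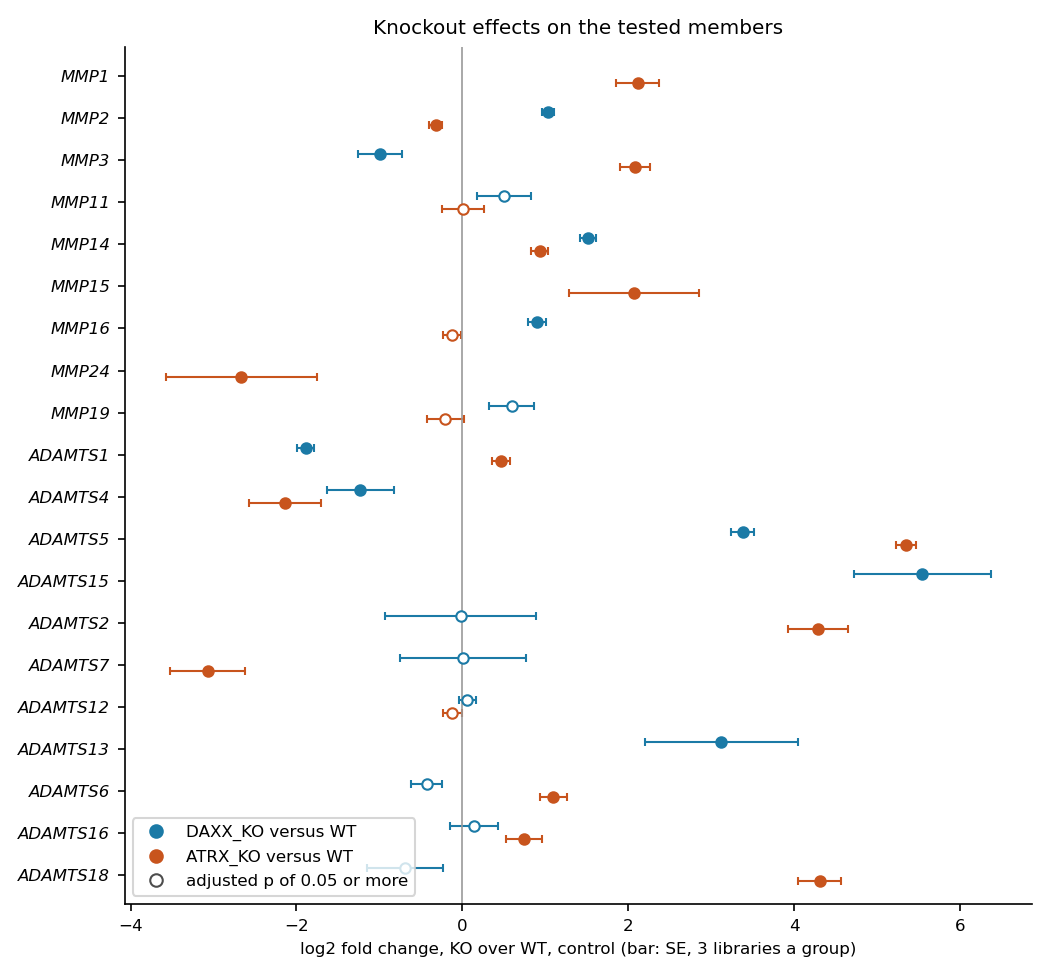
Log2 fold change of KO over WT in control cells for each tested member, with the standard error as a bar, in DAXX_KO (blue) and ATRX_KO (orange). Open points did not pass the test at an adjusted p of 0.05, and a missing point was not tested in that series. ADAMTS5 and MMP14 lie to the right in both lines, ADAMTS4 to the left in both, and MMP2, MMP3 and ADAMTS1 on opposite sides.

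MMP2, gelatinase A, digests denatured collagen and type IV collagen of basement membranes, and MMP14, the membrane-type MMP MT1-MMP, activates it at the cell surface. MMP2 stood at 110.0, 118 and 115 CPM in the WT control libraries of the DAXX series and at 233, 237 and 231 CPM in DAXX_KO. All 3 knockout libraries lay well above WT, a 2.04-fold rise (log2 fold change 1.03, SE 0.07, edgeR adjusted p = 6.16e-10). MMP2 of the ATRX series stood at 158, 152 and 154 CPM in WT and at 117, 122 and 133 CPM in ATRX_KO, where it was lower in every library (log2 fold change -0.32, SE 0.08, edgeR adjusted p = 0.00334). MMP14 rose in both lines. It stood at 47.4, 55.4 and 46.5 CPM in WT and 132, 142 and 152 CPM in DAXX_KO (log2 fold change 1.51, SE 0.09, edgeR adjusted p = 1.18e-10). Among ATRX series libraries it stood at 69.8, 64.4 and 65.2 CPM in WT and 115, 117 and 147 CPM in ATRX_KO (log2 fold change 0.93, SE 0.10, edgeR adjusted p = 1.24e-06). The lowest knockout library exceeded the highest WT library in both series.

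The other membrane-type MMPs had lower levels. MMP16 (MT3-MMP), known from brain, stood at 31.0, 43.4 and 36.8 CPM in WT and 63.7, 70.5 and 72.0 CPM in DAXX_KO, where it rose (log2 fold change 0.89, SE 0.11, edgeR adjusted p = 1.04e-06). It stood at 49.5, 44.2 and 43.6 CPM in WT and 48.3, 36.6 and 40.8 CPM in ATRX_KO, with overlapping libraries that did not pass the test (edgeR adjusted p = 0.362). MMP24 (MT5-MMP) is known from neurons and was close to the floor. It had 9, 3 and 3 counts in WT and 2, 0 and 0 counts in ATRX_KO, where it was lower (log2 fold change -2.66, SE 0.91, edgeR adjusted p = 0.0268). The pooled counts were 15 and 2, a ratio of 7.42 with an exact 95% interval of 1.72 to 66.8 that covers counting error only. This call was lost without WT control library 1 (edgeR adjusted p = 0.151), without ATRX_KO control library 2 (0.0947) or without ATRX_KO control library 3 (0.0918), and the log2 fold change was -1.99 without that WT library and -5.32 without ATRX_KO control library 1. MMP24OS lies on the opposite strand at the end of MMP24, and the strand used in counting was not given in the sources used here, so their reads cannot be told apart. MMP15 (MT2-MMP) had 0, 0 and 5 counts in WT and 9, 6 and 7 counts in ATRX_KO (log2 fold change 2.07, SE 0.78, edgeR adjusted p = 0.0432). It passed the filter through ATRX_KO libraries alone, so the filter favoured a higher level in KO. Its call was lost without any 1 of 11 of the 12 libraries (edgeR adjusted p = 0.0505 to 0.152), and without WT control library 3 its log2 fold change was 5.88. MMP17 and MMP25 were not tested.

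MMP1, interstitial collagenase, and MMP3, stromelysin 1, lie 37.6 kb apart in the MMP cluster of chromosome 11 (8 members, chr11:102391239-102826461 in GRCh37). Both rose in ATRX_KO, whereas MMP3 fell in DAXX_KO. MMP3 stood at 4.36, 5.76 and 3.96 CPM in WT and 2.25, 2.64 and 2.17 CPM in DAXX_KO (log2 fold change -0.99, SE 0.26, edgeR adjusted p = 0.00335). It stood at 4.98, 5.60 and 4.07 CPM in WT and 16.9, 25.5 and 19.6 CPM in ATRX_KO (log2 fold change 2.08, SE 0.18, edgeR adjusted p = 7.06e-08). The libraries of WT and KO were apart in both series. MMP1, which falls outside the rule for named members and was chosen after its values were seen, had 19, 17 and 15 counts in WT and 67, 73 and 79 counts in ATRX_KO (log2 fold change 2.11, SE 0.25, edgeR adjusted p = 4.15e-06). In the DAXX series it was under the filter, with 13, 10 and 4 counts in WT control and 0 in all 3 DAXX_KO control libraries. Against a floor of 3 counts per library it was at least 2.58-fold lower in DAXX_KO. The pseudogene WTAPP1 overlaps the ends of MMP1 and MMP3 on the opposite strand, so reads of these genes and of WTAPP1 cannot be told apart. The other members of the cluster, MMP7, MMP8, MMP10, MMP13, MMP20 and MMP27, were not tested. MMP11 and MMP19, on other chromosomes, did not pass the test in either knockout. TMEM198B overlaps the end of MMP19 on the opposite strand, which sets the same limit.

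ADAMTS1 and ADAMTS5 lie next to each other on chromosome 21, with 72.5 kb between them, and both cut proteoglycans such as aggrecan and versican. ADAMTS5 rose in both knockouts. It stood at 4.96, 3.34 and 4.32 CPM in WT and 43.9, 45.8 and 42.7 CPM in DAXX_KO, 10.4-fold higher (log2 fold change 3.38, SE 0.14, edgeR adjusted p = 2.84e-13). For ATRX the levels were 1.71, 2.04 and 2.03 CPM in WT and 71.7, 81.7 and 82.4 CPM in ATRX_KO, 40.7-fold higher (log2 fold change 5.35, SE 0.12, edgeR adjusted p = 8.24e-15). In both series the WT libraries stayed under 5 CPM and the knockout libraries exceeded 42 CPM. A lncRNA overlaps the end of ADAMTS5 on the opposite strand, and their reads cannot be told apart. ADAMTS1 moved in opposite directions. It stood at 81.1, 73.9 and 76.5 CPM in WT and at only 17.9, 22.2 and 22.5 CPM in DAXX_KO, 3.70-fold lower (log2 fold change -1.89, SE 0.10, edgeR adjusted p = 1.05e-11). It stood at 84.5, 68.8 and 63.9 CPM in WT and 101, 89.0 and 110.2 CPM in ATRX_KO (log2 fold change 0.46, SE 0.11, edgeR adjusted p = 0.00231). The highest WT library and the lowest ATRX_KO library were close but did not overlap.

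The other tested proteoglycanases were ADAMTS4 and ADAMTS15. ADAMTS4, aggrecanase 1, was lower in both knockouts. It stood at 2.18, 1.73 and 2.64 CPM in WT and 0.625, 1.06 and 1.08 CPM in DAXX_KO (log2 fold change -1.23, SE 0.40, edgeR adjusted p = 0.0148), a call lost without WT control library 3 (edgeR adjusted p = 0.0571) or DAXX_KO control library 1 (0.0690). It stood at 3.03, 1.78 and 2.96 CPM in WT and 0.174, 1.09 and 0.477 CPM in ATRX_KO (log2 fold change -2.14, SE 0.43, edgeR adjusted p = 0.000695), and its log2 fold change was -2.94 without ATRX_KO control library 2. ADAMTS15 had 1, 0 and 0 counts in WT and 23, 17 and 17 counts in DAXX_KO, where it rose (log2 fold change 5.54, SE 0.83, edgeR adjusted p = 1.24e-05). It passed the filter through DAXX_KO libraries alone, so the filter favoured a higher level in KO. The pooled counts were 57 and 1, a ratio of 64.7 with an exact 95% interval of 11.1 to 2598 (counting error only), and the log2 fold change was 7.32 without WT control library 1, which held the single count. ADAMTS15 did not exceed 2 counts in any library of the ATRX series, and ADAMTS8, 20.04 kb away from it, did not exceed 4 counts in any library.

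ADAMTS2 and ADAMTS18 were the largest rises in ATRX_KO after ADAMTS5. ADAMTS2, which removes the amino-terminal propeptide of fibrillar procollagens, stood at 0.389, 0.170 and 0.932 CPM in WT and 8.87, 11.6 and 8.98 CPM in ATRX_KO (log2 fold change 4.28, SE 0.36, edgeR adjusted p = 6.88e-08). Its log2 fold change was 5.06 without WT control library 3. ADAMTS2 passed the filter of this series only with ATRX_KO libraries, so the filter favoured a higher level in KO. In the DAXX series it stood at 0.991, 0 and 0.480 CPM in WT and 1.12, 0.132 and 0.241 CPM in DAXX_KO, with overlapping libraries (edgeR adjusted p = 0.988). ADAMTS18, an enzyme with few known substrates, stood at 1.32, 0.594 and 0.932 CPM in WT and 24.7, 16.2 and 16.5 CPM in ATRX_KO (log2 fold change 4.31, SE 0.26, edgeR adjusted p = 9.68e-10). It stood at 1.69, 1.96 and 1.44 CPM in WT and 1.75, 0.792 and 0.602 CPM in DAXX_KO, again with overlap (edgeR adjusted p = 0.220). A lncRNA without a symbol overlaps the end of ADAMTS18 on each strand, so their reads may not be separable from those of ADAMTS18.

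ADAMTS7 and ADAMTS12, which cut cartilage oligomeric matrix protein, differed from each other. ADAMTS7 stood at 1.94, 2.04 and 1.86 CPM in WT and 0.348, 0.167 and 0.159 CPM in ATRX_KO (log2 fold change -3.07, SE 0.45, edgeR adjusted p = 3.41e-05). The pooled counts were 71 in WT and 8 in ATRX_KO, a ratio of 8.77 with an exact 95% interval of 4.22 to 21.1 (counting error only). It stood at 0.991, 0.691 and 0 CPM in WT and 0.250, 0.924 and 0.602 CPM in DAXX_KO, with overlapping libraries (edgeR adjusted p = 0.995). In control cells ADAMTS12 did not pass the test in either knockout. It stood at 28.7, 30.4 and 26.1 CPM in WT and 28.5, 31.8 and 28.6 CPM in DAXX_KO, and at 33.2, 27.4 and 26.7 CPM in WT and 27.5, 27.4 and 25.4 CPM in ATRX_KO. ADAMTS13, which cuts von Willebrand factor, had 0, 2 and 0 counts in WT and 7, 9 and 2 counts in DAXX_KO (log2 fold change 3.12, SE 0.93, edgeR adjusted p = 0.00773). It passed the filter through DAXX_KO libraries alone, so the filter favoured a higher level in KO. The pooled counts were 18 and 2, a ratio of 10.2 with an exact 95% interval of 2.44 to 90.7 (counting error only), and the log2 fold change was 5.71 without WT control library 2.

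ADAMTS6 stood at 14.2, 12.4 and 9.49 CPM in WT and 26.4, 22.3 and 28.6 CPM in ATRX_KO, where it rose (log2 fold change 1.10, SE 0.16, edgeR adjusted p = 3.29e-05). It stood at 11.6, 11.97 and 10.7 CPM in WT and 7.12, 8.31 and 9.99 CPM in DAXX_KO, lower in every library but short of the threshold (edgeR adjusted p = 0.0620). ADAMTS6 did pass there with RLE size factors, with only the compared groups in the fit, and without WT etoposide library 1 or DAXX_KO control library 3. ADAMTS16 rose in ATRX_KO (log2 fold change 0.74, SE 0.22, edgeR adjusted p = 0.0116), from 2.38 to 3.47 CPM in WT to 3.97 to 5.103 CPM in ATRX_KO, a call lost without WT control library 2 (edgeR adjusted p = 0.0520).

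The tested genes around ADAMTS1 and ADAMTS5 on chromosome 21 had negative median log2 fold changes in both knockouts. For ADAMTS1, with at most 30 genes a side, this median was -0.29 in DAXX_KO (55 genes, quartiles -0.65 and 0.04), the same direction as the -1.89 of ADAMTS1. The median log2 fold change of the tested genes on both sides of ADAMTS5, at most 30 a side, was -0.30 in DAXX_KO (56 genes) and -0.86 in ATRX_KO (60 genes). In ATRX_KO the quartiles of these neighbours were -1.31 and -0.54, so most tested genes of this stretch of chromosome 21 were lower while ADAMTS5 and ADAMTS1 were higher. Around ADAMTS13 on chromosome 9 the neighbours had a median of 0.62 in DAXX_KO, against 3.12 for ADAMTS13. Around ADAMTS6 on chromosome 5 the neighbours had a median of -0.43 in DAXX_KO (60 genes, quartiles -0.72 and -0.12), against -0.43 for ADAMTS6. Around MMP14, ADAMTS2 and ADAMTS18 the medians lay between -0.15 and 0.16 in both knockouts. The part of these regional shifts in the levels of the members was not tested.

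**Figure D3:**
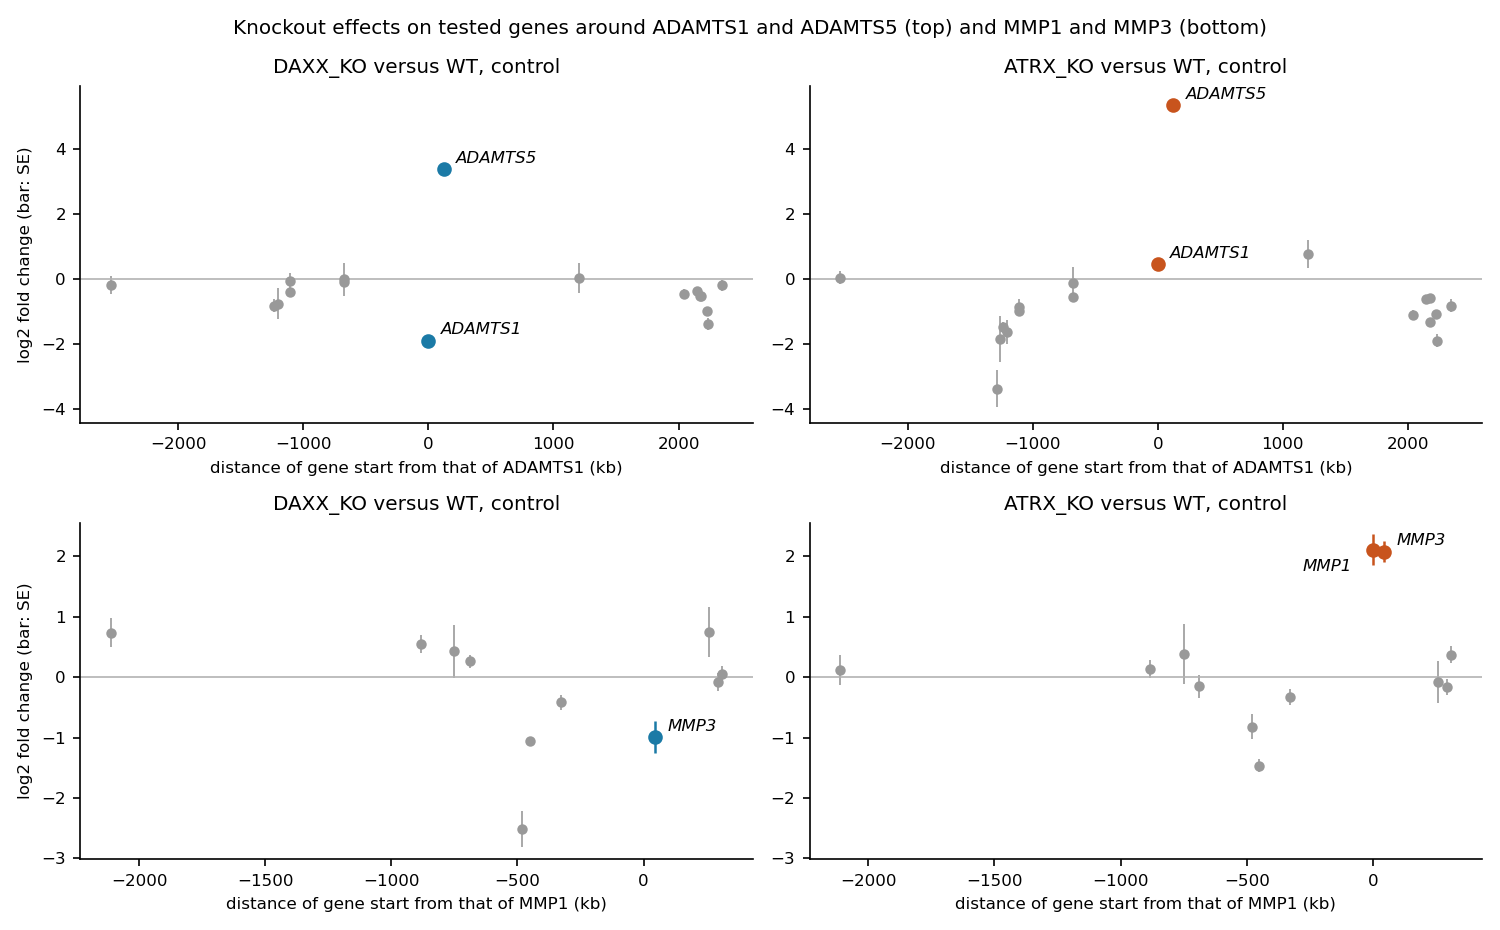
Log2 fold change (KO over WT, control) with its standard error for tested genes near ADAMTS1 (top) and MMP1 (bottom), by the distance of their start from that of ADAMTS1 or MMP1 in kb. Members are coloured and other genes grey. ADAMTS5 stands above its neighbours in both knockouts, ADAMTS1 stands below them in DAXX_KO, and MMP1 and MMP3 stand above theirs in ATRX_KO.

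The effects of the 2 knockouts were compared directly in a model of all 24 libraries. Of 20 members tested, 14 differed between DAXX_KO and ATRX_KO, 7 with the higher effect in DAXX_KO and 7 with the higher effect in ATRX_KO, where 34.1% of all genes differed (17.0% higher and 17.2% lower). Since each series had its own WT libraries, a difference between the knockouts cannot be told apart from one between the series. Of the 15 members tested in both series, 7 passed in DAXX_KO and 11 in ATRX_KO, and 6 passed in both, 3 of them in the same direction. Over the 15039 genes tested in both series, those that passed in both made up 54.8% of the calls in DAXX_KO and 67.0% of those in ATRX_KO, and 80.4% of them had the same direction. ADAMTS5 and MMP14 were higher in both, ADAMTS4 was lower in both, and MMP2, MMP3 and ADAMTS1 moved in opposite directions. The difference of DAXX_KO minus ATRX_KO was 1.35 (SE 0.10, edgeR adjusted p = 1.10e-10) for MMP2, 0.58 (SE 0.14, edgeR adjusted p = 0.00231) for MMP14 and 1.03 (SE 0.16, edgeR adjusted p = 8.95e-06) for MMP16 on the log2 scale. It was -2.35 (SE 0.15, edgeR adjusted p = 5.01e-12) for ADAMTS1, -1.97 (SE 0.21, edgeR adjusted p = 5.29e-08) for ADAMTS5, -1.52 (SE 0.25, edgeR adjusted p = 2.52e-05) for ADAMTS6 and -3.07 (SE 0.30, edgeR adjusted p = 9.94e-09) for MMP3. The difference for ADAMTS18 was -4.99 (SE 0.49, edgeR adjusted p = 7.97e-09), and -5.58 without DAXX_KO control library 1. ADAMTS2 differed by -4.30 (SE 1.05, edgeR adjusted p = 0.00213), a call lost without DAXX_WT control library 1 (edgeR adjusted p = 0.106, log2 difference -3.23). The difference was -5.66 without DAXX_KO control library 1 and -5.10 without ATRX_WT control library 3. ADAMTS7 differed by 3.07 (SE 0.92, edgeR adjusted p = 0.0105), lost without DAXX_KO control library 2 (edgeR adjusted p = 0.0629), and by 3.78 without DAXX_WT control library 1. MMP1, MMP24, ADAMTS13 and ADAMTS15 also passed, but each had a group at or under the floor, so the size of their fitted differences has no firm meaning. With only the compared groups in the fit, MMP24 and ADAMTS13 were not tested. ADAMTS4 did not pass (edgeR adjusted p = 0.273).

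In WT cells, etoposide lowered MMP16 and ADAMTS12 and raised ADAMTS7, ADAMTS5 and MMP19 in both series. In WT of the DAXX series, 8 of 17 members passed, 4 higher and 4 lower, where 60.2% of all genes passed (29.6% higher and 30.6% lower). In WT of the ATRX series, 11 of 18 passed, 7 higher and 4 lower, where 61.5% of all genes passed (31.7% higher and 29.8% lower). The shares of members were thus below and near those of all genes. MMP16 stood at 31.0, 43.4 and 36.8 CPM in WT control and 14.1, 12.7 and 17.2 CPM with etoposide in the DAXX series (log2 fold change -1.34, SE 0.13, edgeR adjusted p = 2.39e-08). In the ATRX series it stood at 49.5, 44.2 and 43.6 CPM and 16.9, 15.6 and 16.8 CPM (log2 fold change -1.48, SE 0.12, edgeR adjusted p = 7.71e-09). All etoposide libraries were below all control libraries in both series.

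ADAMTS12 fell from 28.7, 30.4 and 26.1 CPM to 8.53, 10.7 and 10.9 CPM in WT of the DAXX series (log2 fold change -1.497, SE 0.12, edgeR adjusted p = 1.90e-09). In WT of the ATRX series it fell from 33.2, 27.4 and 26.7 CPM to 14.8, 13.0 and 11.9 CPM (log2 fold change -1.13, SE 0.13, edgeR adjusted p = 5.76e-07). ADAMTS7 rose from 0.991, 0.691 and 0 CPM to 5.02, 6.43 and 6.35 CPM in the DAXX series (log2 fold change 3.31, SE 0.52, edgeR adjusted p = 1.86e-05), and its log2 fold change was 4.03 without WT control library 1. ADAMTS7 passed the filter of the DAXX series through etoposide libraries alone, which favoured a rise with etoposide. The p-value of this rise is thus no independent evidence. It rose from 1.94, 2.04 and 1.86 CPM to 7.399, 7.17 and 6.22 CPM in the ATRX series (log2 fold change 1.83, SE 0.29, edgeR adjusted p = 4.04e-05). The 2 COMP-cleaving members thus moved in opposite directions in both WT groups. MMP24 rose from 9, 3 and 3 counts to 16, 25 and 14 counts in WT of the ATRX series (log2 fold change 2.08, SE 0.54, edgeR adjusted p = 0.00303), and its log2 fold change was 2.74 without WT control library 1. MMP24 passed the filter through etoposide libraries alone, so the filter favoured a rise with etoposide. The p-value of this rise is thus no independent evidence. MMP19, which digests basement membrane proteins, rose in WT of both series, from 1.73 to 2.88 CPM to 3.81 to 5.52 CPM in the DAXX series (log2 fold change 1.03, SE 0.26, edgeR adjusted p = 0.00215) and from 3.06 to 3.64 CPM to 7.03 to 8.79 CPM in the ATRX series (log2 fold change 1.31, SE 0.21, edgeR adjusted p = 3.44e-05). Among the abundant MMPs, MMP2 rose in WT of the DAXX series, from 110.0, 118 and 115 CPM to 129, 139 and 139.9 CPM (log2 fold change 0.25, SE 0.07, edgeR adjusted p = 0.00642), and MMP14 fell in WT of the ATRX series, from 69.8, 64.4 and 65.2 CPM to 51.4, 51.3 and 53.3 CPM (log2 fold change -0.35, SE 0.10, edgeR adjusted p = 0.00738). MMP3 (log2 fold change 0.81, SE 0.19, edgeR adjusted p = 0.00164) and ADAMTS16 (log2 fold change 0.75, SE 0.22, edgeR adjusted p = 0.00740) rose and MMP1 (log2 fold change -1.62, SE 0.37, edgeR adjusted p = 0.00106) fell in WT of the ATRX series.

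ADAMTS1 responded in opposite directions in the WT cells of the 2 series. In the DAXX series it stood at 81.1, 73.9 and 76.5 CPM in WT control and 57.6, 54.6 and 54.6 CPM with etoposide (log2 fold change -0.47, SE 0.09, edgeR adjusted p = 0.000143). In the ATRX series it stood at 84.5, 68.8 and 63.9 CPM in WT control and 155, 160.2 and 165 CPM with etoposide (log2 fold change 1.15, SE 0.11, edgeR adjusted p = 8.86e-08). The difference between the 2 WT responses, a comparison chosen after the values were seen, was -1.61 (SE 0.15, edgeR adjusted p = 2.35e-07) on the log2 scale. Of 20 members tested for this difference 3 passed, all with the lower response in the DAXX series, where 3.15% of all genes passed (1.42% higher and 1.73% lower). ADAMTS5 rose in both, from 4.96, 3.34 and 4.32 to 8.53, 9.64 and 6.35 CPM in the DAXX series (log2 fold change 0.95, SE 0.17, edgeR adjusted p = 8.74e-05) and from 1.71, 2.04 and 2.03 to 7.12, 8.79 and 8.43 CPM in the ATRX series (log2 fold change 2.07, SE 0.15, edgeR adjusted p = 3.91e-09). The difference for ADAMTS5 was -1.11 (SE 0.24, edgeR adjusted p = 0.00912), lost without DAXX_WT control library 1 (edgeR adjusted p = 0.0585). ADAMTS6 fell in the DAXX series, from 11.6, 11.97 and 10.7 to 6.400, 3.57 and 4.05 CPM (log2 fold change -1.29, SE 0.20, edgeR adjusted p = 1.93e-05), and stood at 14.2, 12.4 and 9.49 CPM in control and 11.6, 11.1 and 10.5 CPM with etoposide in the ATRX series (edgeR adjusted p = 0.549). Its difference was -1.16 (SE 0.27, edgeR adjusted p = 0.0168), lost without DAXX_WT etoposide library 2 (edgeR adjusted p = 0.0775) or 3 (0.0632) or ATRX_WT control library 3 (0.0521). Dose, duration and day of treatment are not given for either series, and they cannot be told apart from the series.

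**Figure D4:**
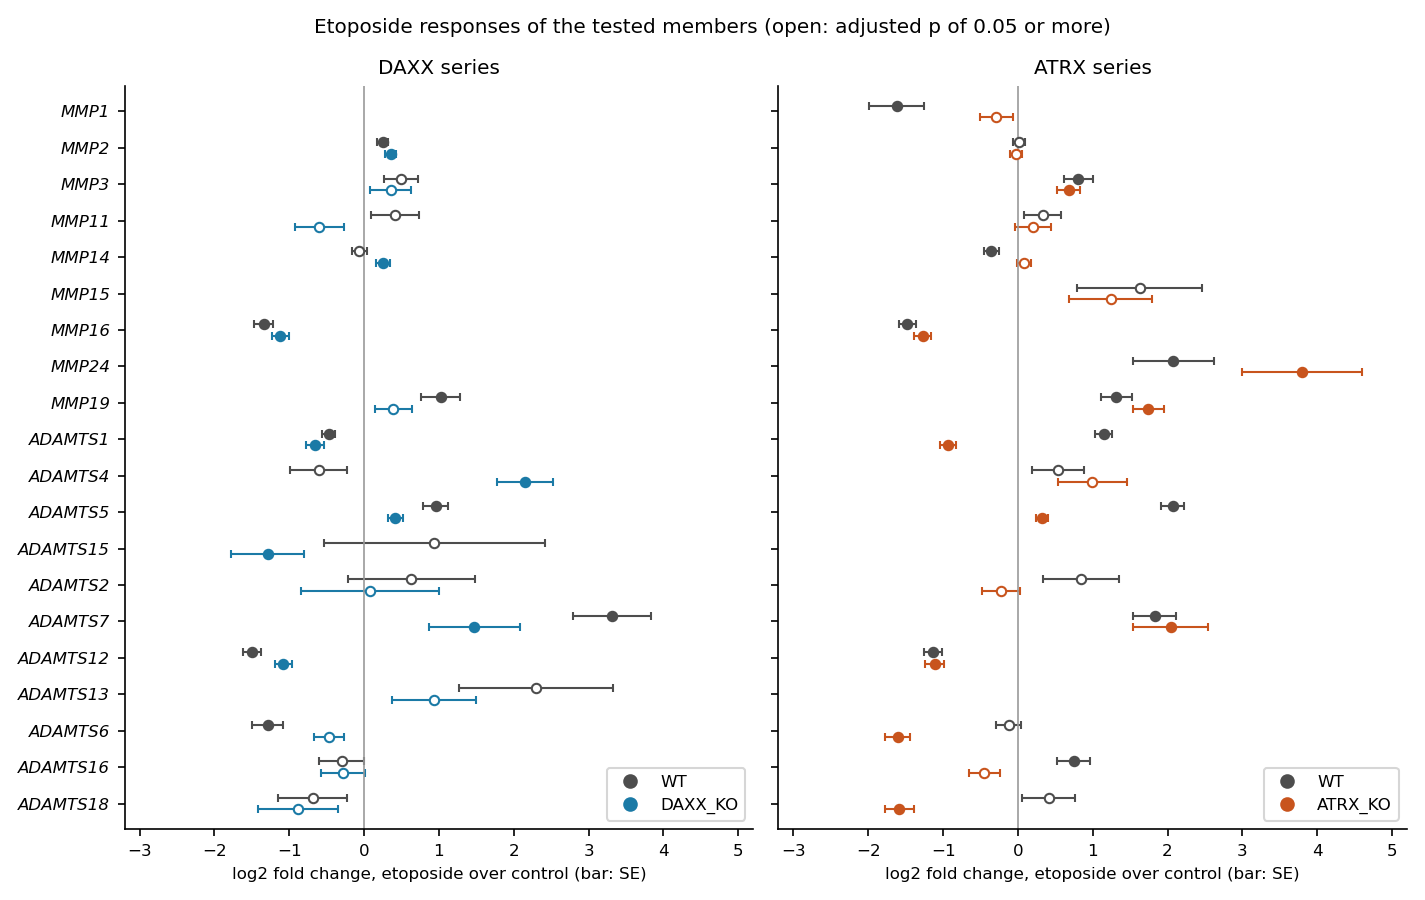
Log2 fold change of etoposide over control, with the standard error as a bar, for each tested member in WT (grey) and KO cells of the DAXX series (left) and ATRX series (right). Open points did not pass the test at an adjusted p of 0.05. MMP16 and ADAMTS12 lie to the left and ADAMTS5 and ADAMTS7 to the right in all 4 responses, and ADAMTS1 lies on opposite sides in WT and ATRX_KO of the ATRX series.

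In the knockouts, etoposide lowered MMP16 and ADAMTS12 again. In DAXX_KO 9 of 17 members passed, 5 higher and 4 lower, where 54.5% of all genes passed (26.8% higher and 27.8% lower), and scaling by library totals alone gave 3 higher and 5 lower. In ATRX_KO 10 of 18 passed, 5 higher and 5 lower, where 49.5% of all genes passed (24.3% higher and 25.2% lower). Over the 4 responses, those of WT in both series and of both knockouts, MMP16 and ADAMTS12 fell in each, and ADAMTS5 and ADAMTS7 rose in each. The filter favoured the rise of ADAMTS7 in WT of the DAXX series. MMP16 stood at 32.2, 30.8 and 31.9 CPM in DAXX_KO etoposide (log2 fold change -1.12, SE 0.11, edgeR adjusted p = 5.71e-08) and 17.6, 18.9 and 15.5 CPM in ATRX_KO etoposide (log2 fold change -1.27, SE 0.11, edgeR adjusted p = 8.38e-08). ADAMTS12 stood at 13.5, 14.7 and 13.7 CPM in DAXX_KO etoposide (log2 fold change -1.08, SE 0.11, edgeR adjusted p = 1.26e-07) and 12.02, 11.1 and 14.0 CPM in ATRX_KO etoposide (log2 fold change -1.11, SE 0.12, edgeR adjusted p = 1.25e-06). These knockout libraries with etoposide lay below all control libraries of the same clone.

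ADAMTS7 stood at 1.95, 0.725 and 2.35 CPM in DAXX_KO with etoposide (log2 fold change 1.47, SE 0.61, edgeR adjusted p = 0.0489), with libraries that overlapped the control. That call was lost with scaling by library totals alone (edgeR adjusted p = 0.0678) and without any 1 of 8 of the 12 libraries (0.0561 to 0.180). In ATRX_KO it stood at 1.42, 1.01 and 0.452 CPM (log2 fold change 2.04, SE 0.50, edgeR adjusted p = 0.00252). With only the compared groups in the fit, ADAMTS7 did not pass the filter in either clone. ADAMTS5 rose further in DAXX_KO, from 43.9, 45.8 and 42.7 CPM to 59.7, 59.0 and 57.6 CPM (log2 fold change 0.41, SE 0.10, edgeR adjusted p = 0.00168), and ADAMTS1 fell from 17.9, 22.2 and 22.5 CPM to 13.6, 14.6 and 11.3 CPM (log2 fold change -0.66, SE 0.12, edgeR adjusted p = 8.83e-05). ADAMTS5 and ADAMTS1 thus moved in the same directions as in WT of this series. Neither interaction passed (edgeR adjusted p = 0.0803 for ADAMTS5 and 0.459 for ADAMTS1). In DAXX_KO etoposide also raised MMP2 (log2 fold change 0.35, SE 0.07, edgeR adjusted p = 0.000263) and, in a call lost with library totals alone (edgeR adjusted p = 0.172) or without DAXX_KO control library 1 (0.0911) or 2 (0.0510) or etoposide library 3 (0.105), MMP14 (log2 fold change 0.25, SE 0.09, edgeR adjusted p = 0.0206). ADAMTS15 fell in DAXX_KO, to 3, 7 and 16 counts (log2 fold change -1.29, SE 0.49, edgeR adjusted p = 0.0309). That call was lost with DESeq2 (adjusted p = 0.0928) and without any 1 of 4 of the libraries (edgeR adjusted p = 0.0634 to 0.143), and the log2 fold change was -2.07 without DAXX_KO etoposide library 3. In ATRX_KO MMP19 (log2 fold change 1.74, SE 0.21, edgeR adjusted p = 2.64e-06) and MMP3 (log2 fold change 0.68, SE 0.15, edgeR adjusted p = 0.00118) rose. MMP24 rose in ATRX_KO to 10, 11 and 14 counts (log2 fold change 3.80, SE 0.80, edgeR adjusted p = 0.000808), a ratio of pooled counts of 16.4 (exact 95% interval 4.23 to 141, counting error only), and its log2 fold change was 6.45 without ATRX_KO control library 1. MMP24 passed the filter through etoposide libraries alone, which favoured a rise with etoposide.

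The etoposide response differed between DAXX_KO and WT for 1 of 17 members, where 14.2% of all genes passed (8.38% higher and 5.79% lower). This was ADAMTS4, which stood at 2.18, 1.73 and 2.64 CPM in WT control and 1.13, 1.90 and 1.22 CPM in WT etoposide. In DAXX_KO it stood at 0.625, 1.06 and 1.08 CPM in control and 5.85, 3.63 and 3.02 CPM with etoposide, all 3 etoposide libraries above all other libraries of the series (log2 fold change 2.15, SE 0.38, edgeR adjusted p = 7.47e-05). The interaction, the response in DAXX_KO minus that in WT, was 2.76 (SE 0.54, edgeR adjusted p = 0.00164) on the log2 scale. The count was 2 with scaling by library totals alone, which added ADAMTS5.

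In the ATRX series the interaction passed for 7 of 18 members, 2 higher and 5 lower, where 16.0% of all genes passed (8.36% higher and 7.64% lower). The largest in size was ADAMTS1, which etoposide raised in WT and lowered in ATRX_KO. It stood at 155, 160.2 and 165 CPM in WT etoposide and at 101, 89.0 and 110.2 CPM in control and 52.9, 58.0 and 46.1 CPM with etoposide in ATRX_KO (log2 fold change -0.93, SE 0.11, edgeR adjusted p = 2.29e-06), and the interaction was -2.08 (SE 0.15, edgeR adjusted p = 5.33e-07). ADAMTS5 rose by a smaller factor in ATRX_KO, from 71.7, 81.7 and 82.4 CPM to 100.2, 98.8 and 96.1 CPM (log2 fold change 0.32, SE 0.08, edgeR adjusted p = 0.00317), with an interaction of -1.75 (SE 0.18, edgeR adjusted p = 9.82e-06) on the log2 scale. In CPM the rise was larger in ATRX_KO, from a mean of 78.6 to 98.3 CPM, against 1.93 to 8.11 CPM in WT. The level of ADAMTS5 in ATRX_KO control exceeded that in WT with etoposide, which stood at 8.11 ± 0.878 CPM (SD, n = 3).

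ADAMTS18 stood at 1.202, 1.53 and 1.10 CPM in WT etoposide and fell in ATRX_KO to 6.14, 7.08 and 5.88 CPM (log2 fold change -1.58, SE 0.20, edgeR adjusted p = 4.61e-06), with an interaction of -2.00 (SE 0.41, edgeR adjusted p = 0.00334). ADAMTS6 fell in ATRX_KO from 26.4, 22.3 and 28.6 CPM to 10.3, 8.38 and 6.79 CPM (log2 fold change -1.61, SE 0.17, edgeR adjusted p = 4.76e-07), with an interaction of -1.48 (SE 0.24, edgeR adjusted p = 0.000584). ADAMTS16 also had a lower response in ATRX_KO, with an interaction of -1.195 (SE 0.31, edgeR adjusted p = 0.0143). The members that were raised in ATRX_KO control cells and then lowered by etoposide were ADAMTS1, ADAMTS6 and ADAMTS18. MMP14 had a higher response in ATRX_KO, 0.43 (SE 0.14, edgeR adjusted p = 0.0490), as did MMP1, 1.33 (SE 0.43, edgeR adjusted p = 0.0459). The call of MMP14 was lost without any 1 of 9 of the 12 libraries (edgeR adjusted p = 0.0654 to 0.122), and that of MMP1 without any 1 of 10 (0.0579 to 0.124). No interaction was called for MMP2, MMP3, MMP16 or ADAMTS12 in either series.

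The knockouts were also compared with WT under etoposide. In DAXX_KO 11 of 17 passed, 8 higher and 3 lower, where 53.0% of all genes passed (27.9% higher and 25.2% lower). ADAMTS5 (log2 fold change 2.83, SE 0.12, edgeR adjusted p = 1.35e-12), MMP14 (log2 fold change 1.83, SE 0.10, edgeR adjusted p = 1.18e-11), MMP16 (log2 fold change 1.11, SE 0.13, edgeR adjusted p = 6.38e-07) and MMP2 (log2 fold change 1.14, SE 0.07, edgeR adjusted p = 1.62e-10) were higher and ADAMTS1 (log2 fold change -2.07, SE 0.11, edgeR adjusted p = 9.78e-12) was lower, as in control cells. ADAMTS4, lower in DAXX_KO control cells, was higher with etoposide (log2 fold change 1.53, SE 0.35, edgeR adjusted p = 0.00115). ADAMTS7 (log2 fold change -1.83, SE 0.45, edgeR adjusted p = 0.00192) was lower, and ADAMTS12 (log2 fold change 0.47, SE 0.13, edgeR adjusted p = 0.00428) was higher. The call of ADAMTS13 (log2 fold change 1.76, SE 0.62, edgeR adjusted p = 0.0224) was lost without 1 of 3 libraries, WT etoposide 1 or 2 or DAXX_KO etoposide 1 (edgeR adjusted p = 0.0731 to 0.102). ADAMTS15 (log2 fold change 3.31, SE 0.86, edgeR adjusted p = 0.00312) had a log2 fold change of 2.53 without DAXX_KO etoposide library 3. Both passed the filter through DAXX_KO libraries alone, and neither was tested when only the compared groups entered the fit. In ATRX_KO 11 of 18 passed, 7 higher and 4 lower, where 45.9% of all genes passed (23.0% higher and 22.9% lower). ADAMTS5 (log2 fold change 3.60, SE 0.10, edgeR adjusted p = 1.70e-13), ADAMTS2 (log2 fold change 3.21, SE 0.34, edgeR adjusted p = 8.80e-07), ADAMTS18 (log2 fold change 2.31, SE 0.27, edgeR adjusted p = 2.48e-06), MMP1 (log2 fold change 3.44, SE 0.32, edgeR adjusted p = 1.73e-07), MMP3 (log2 fold change 1.95, SE 0.16, edgeR adjusted p = 6.19e-08) and MMP14 (log2 fold change 1.36, SE 0.10, edgeR adjusted p = 1.75e-08) were higher. ADAMTS7 (log2 fold change -2.86, SE 0.32, edgeR adjusted p = 1.60e-06), ADAMTS4 (log2 fold change -1.68, SE 0.38, edgeR adjusted p = 0.00157) and MMP2 (log2 fold change -0.36, SE 0.08, edgeR adjusted p = 0.00112) were lower. ADAMTS1 was 3.06-fold lower with etoposide (log2 fold change -1.61, SE 0.11, edgeR adjusted p = 5.52e-09), although it was higher in ATRX_KO control cells. MMP15 (log2 fold change 1.68, SE 0.59, edgeR adjusted p = 0.0279) passed, but not without any 1 of 5 libraries (edgeR adjusted p = 0.0553 to 0.0901). ATRX_KO libraries alone brought MMP15 over the filter, and ADAMTS2 passed the filter only with ATRX_KO libraries.

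**Figure D5:**
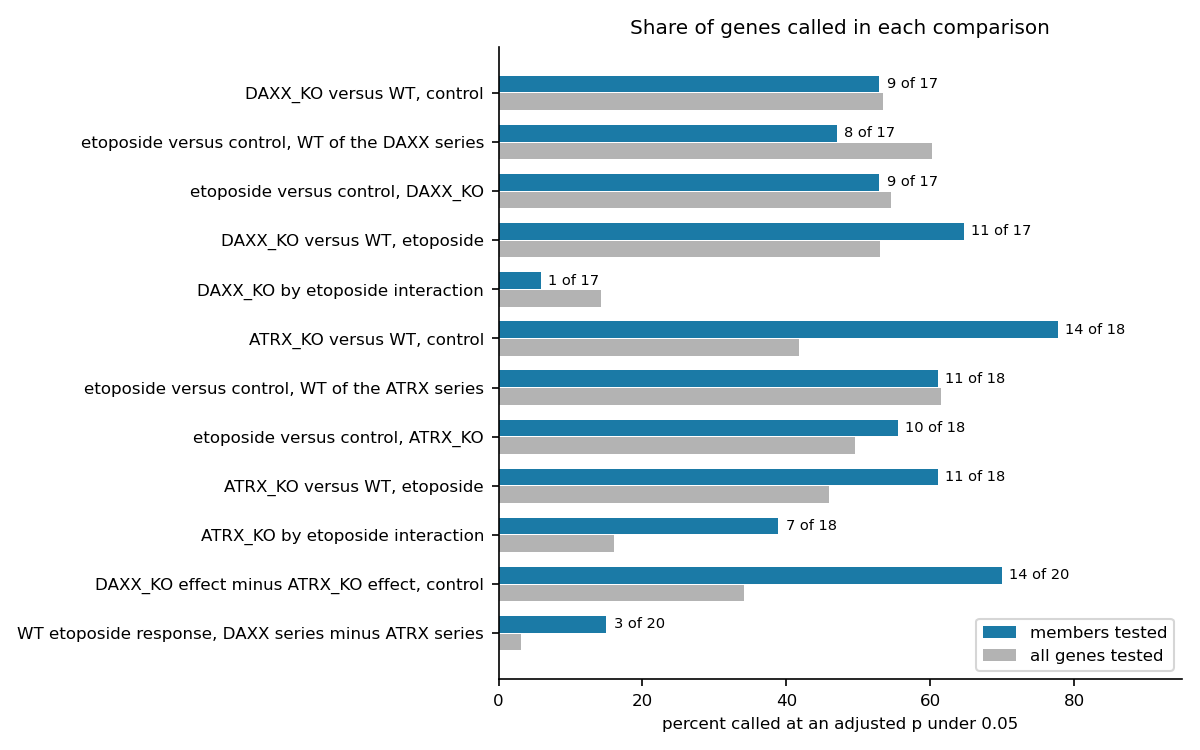
Percent of members tested (blue, with the number called of the number tested) and of all genes tested (grey) that passed at an adjusted p under 0.05, for each comparison. The share of members exceeds that of all genes in ATRX_KO against WT and lies near or below it in DAXX_KO against WT in control cells and in both WT etoposide responses.

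Regulators and substrates of these proteases were read from 3 lists chosen with earlier results of these data known. Of 15 regulators, which were TIMPs, RECK, A2M, activating proteases, the plasminogen activators and their receptor and inhibitor, BSG and LRP1, 13 were tested. In DAXX_KO control cells 4 were higher and 6 lower (median log2 fold change -0.19), where 26.7% of all genes were higher and 26.6% lower. In ATRX_KO 5 were higher and 7 lower (-0.39), where 20.8% of all genes were higher and 21.0% lower. PLAU, the urokinase that generates plasmin upstream of several MMPs, fell in both, from 2074, 1831 and 1657 CPM to 92.7, 103 and 96.3 CPM in DAXX_KO (log2 fold change -4.25, SE 0.17, edgeR adjusted p = 1.52e-13) and from 2660.3, 2283 and 2266 CPM to 133, 87.0 and 139.8 CPM in ATRX_KO (log2 fold change -4.32, SE 0.15, edgeR adjusted p = 1.27e-12). Both falls were over 15-fold. TIMP1, an inhibitor of most MMPs, rose in ATRX_KO from 370.1, 493 and 563 CPM to 1667, 1743 and 1669 CPM (log2 fold change 1.83, SE 0.11, edgeR adjusted p = 1.26e-09) and stood at 317 ± 44.7 CPM in WT and 305 ± 19.7 CPM (SD, n = 3) in DAXX_KO (edgeR adjusted p = 0.616). The other TIMPs and RECK, named after their values were seen, fell in ATRX_KO. These were TIMP2 (log2 fold change -0.39, SE 0.14, edgeR adjusted p = 0.0369), TIMP3 (log2 fold change -1.40, SE 0.11, edgeR adjusted p = 1.98e-08), TIMP4 (log2 fold change -0.66, SE 0.10, edgeR adjusted p = 6.40e-05) and the membrane-anchored RECK (log2 fold change -0.63, SE 0.21, edgeR adjusted p = 0.0238). In DAXX_KO TIMP2 (log2 fold change 0.76, SE 0.08, edgeR adjusted p = 1.21e-07) and TIMP4 (log2 fold change 0.80, SE 0.11, edgeR adjusted p = 7.37e-06) were higher, TIMP3 (log2 fold change -0.30, SE 0.09, edgeR adjusted p = 0.00682) was lower and RECK did not pass (edgeR adjusted p = 0.373). PCSK5, a proprotein convertase, rose in ATRX_KO from 1.87, 1.27 and 2.20 CPM to 3.83, 7.11 and 6.75 CPM (log2 fold change 1.72, SE 0.27, edgeR adjusted p = 8.08e-05).

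Of 14 matrix substrates 11 were tested, with 3 higher and 4 lower in DAXX_KO (median -0.18) and 2 higher and 6 lower in ATRX_KO (median -0.65). The shares over all genes are those given for the regulators. THBS1, a matrix glycoprotein, fell from 93.0, 88.6 and 76.3 CPM to 4.62, 5.41 and 5.05 CPM in DAXX_KO (log2 fold change -4.09, SE 0.12, edgeR adjusted p = 2.62e-15) and from 116, 94.9 and 98.1 CPM to 2.78, 2.34 and 2.78 CPM in ATRX_KO (log2 fold change -5.28, SE 0.13, edgeR adjusted p = 2.46e-14). FN1, fibronectin, rose in DAXX_KO from 196, 209.8 and 197 CPM to 791, 802 and 742 CPM (log2 fold change 1.95, SE 0.07, edgeR adjusted p = 7.72e-14) and fell in ATRX_KO from 315, 277 and 283 CPM to 103, 125 and 149 CPM (log2 fold change -1.22, SE 0.10, edgeR adjusted p = 8.03e-08). FBN2, fibrillin 2, fell in ATRX_KO from 1.79, 1.78 and 2.29 CPM to 0.0870, 0.0837 and 0.477 CPM (log2 fold change -3.08, SE 0.47, edgeR adjusted p = 5.54e-05). Of 6 ADAMTS-like genes 3 were tested, and ADAMTSL1 rose in both knockouts, from 11.5, 12.2 and 13.8 to 26.5, 25.7 and 25.5 CPM in DAXX_KO (log2 fold change 1.05, SE 0.14, edgeR adjusted p = 3.09e-06) and from 12.8, 12.4 and 14.2 to 22.7, 19.7 and 16.4 CPM in ATRX_KO (log2 fold change 0.57, SE 0.17, edgeR adjusted p = 0.0115).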

How the data were processed

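The authors prepared QuantSeq 3′ mRNA libraries, sequenced single-end reads, aligned them with STAR to hg19 and estimated counts per gene with RSEM. The deposited values are these estimated counts, rounded and not normalized, for 57736 Ensembl gene IDs, and the RSEM version differs between the paper and the submitters' processing notes. Symbols and positions came from GENCODE release 44 on GRCh37, with 55501 of these IDs matched and 98.8% of all counts on them. Promoters came from RefSeq on GRCh38.p14. No amino acid sequence was used.

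Tests used edgeR 4.0.16 under R 4.3.3. Genes were kept by filterByExpr (minimum count 10, minimum total 15), which left 15247 genes in the DAXX series, 16371 in the ATRX series and 16674 over both. Libraries were scaled by TMM (factors 0.939 to 1.10). Each series (12 libraries, 4 groups) had its own quasi-likelihood model, and contrasts across both series came from 1 fit to all 24 libraries (8 groups). P-values were adjusted over all genes tested by the Benjamini-Hochberg method, and a gene passed at an FDR of 0.05. A log2 fold change is the first group named over the second, and its SE was derived from the F statistic. Fits were tested on simulated data in which a small share of genes, all with ample counts, was changed at a fixed spread. The simulation thus did not cover members with few counts. Replicates differed by 2.16 to 17.1 times the counting error (chi-square per degree of freedom, 24 pairs), so none was counted as a duplicate.

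Values in each library are given for members with a mean of at least 10 CPM over the 24 libraries, or among the 3 largest changes of a knockout effect, WT response or interaction, 15 members in all. MMP1, MMP11, MMP15, MMP19 and ADAMTS16 fall outside this rule and were chosen after their values were seen. The members, lists and rules were chosen with earlier results of these data known. Alternatives were RLE size factors, library totals alone, no filter, the DESeq2 1.42.0 Wald test, a replicate block, only the compared groups, and leaving out each library. Plots were made in Python 3.11.15 (matplotlib 3.10.9).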

Additional observations from a re-analysis of the deposited data

Results flagged for a closer look

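The results below are differences between lines or series that passed the test of the difference itself, on the log2 scale. In the DAXX series the interaction of knockout and etoposide passed for ADAMTS4 alone of 17 members, 2.76 (SE 0.54, edgeR adjusted p = 0.00164), where 14.2% of all genes passed. Scaling by library totals alone added ADAMTS5, and leaving out 1 library added ADAMTS5, ADAMTS6 or MMP11 in some cases. In the ATRX series it passed for ADAMTS1, -2.08 (SE 0.15, edgeR adjusted p = 5.33e-07), ADAMTS18, -2.00 (SE 0.41, edgeR adjusted p = 0.00334), ADAMTS5, -1.75 (SE 0.18, edgeR adjusted p = 9.82e-06), ADAMTS6, -1.48 (SE 0.24, edgeR adjusted p = 0.000584), and ADAMTS16, -1.195 (SE 0.31, edgeR adjusted p = 0.0143). MMP14, 0.43 (SE 0.14, edgeR adjusted p = 0.0490), and MMP1, 1.33 (SE 0.43, edgeR adjusted p = 0.0459), passed there with adjusted p just under the threshold.

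The knockout effect in control cells, DAXX_KO minus ATRX_KO, was lower for ADAMTS18, -4.99 (SE 0.49, edgeR adjusted p = 7.97e-09), ADAMTS2, -4.30 (SE 1.05, edgeR adjusted p = 0.00213), MMP3, -3.07 (SE 0.30, edgeR adjusted p = 9.94e-09), ADAMTS1, -2.35 (SE 0.15, edgeR adjusted p = 5.01e-12), ADAMTS5, -1.97 (SE 0.21, edgeR adjusted p = 5.29e-08), and ADAMTS6, -1.52 (SE 0.25, edgeR adjusted p = 2.52e-05). It was higher for MMP14, 0.58 (SE 0.14, edgeR adjusted p = 0.00231), MMP16, 1.03 (SE 0.16, edgeR adjusted p = 8.95e-06), MMP2, 1.35 (SE 0.10, edgeR adjusted p = 1.10e-10), and ADAMTS7, 3.07 (SE 0.92, edgeR adjusted p = 0.0105). For MMP1 the fitted difference was -8.48 (SE 0.99, edgeR adjusted p = 3.04e-07), with 0 counts in all DAXX_KO control libraries, so this value is no bound. For ADAMTS15 it was 8.06 (SE 2.39, edgeR adjusted p = 0.0115), with 0 counts in all ATRX_KO control libraries, and without ATRX_WT control library 3 the edgeR adjusted p was 1.00 (log2 difference 5.60). For MMP24, 3.89 (SE 1.22, edgeR adjusted p = 0.0145), the call was lost without ATRX_WT control library 1 (edgeR adjusted p = 0.0646) or DAXX_KO control library 3 (0.0613), and the log2 difference was 5.44 without DAXX_WT control library 2 and 6.31 without ATRX_KO control library 1. For ADAMTS13, 3.79 (SE 1.29, edgeR adjusted p = 0.0240), it was lost without any 1 of 6 libraries (edgeR adjusted p = 0.0527 to 0.0865), and the log2 difference was 6.61 without DAXX_WT control library 2.

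The WT etoposide response, DAXX series minus ATRX series, a comparison chosen after the data were seen, was lower for ADAMTS1, -1.61 (SE 0.15, edgeR adjusted p = 2.35e-07), ADAMTS6, -1.16 (SE 0.27, edgeR adjusted p = 0.0168), and ADAMTS5, -1.11 (SE 0.24, edgeR adjusted p = 0.00912). Of these 3, ADAMTS1 had opposite signs, lower with etoposide in 3 of 3 libraries of the DAXX series and higher in 3 of 3 of the ATRX series. The difference cannot be told apart from one between the series.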

How the results depend on the processing

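The number of members that passed stayed within 1.5 times the value given in 69 of 70 alternative analyses of the 12 comparisons, apart from leaving out libraries. The exception was the DAXX_KO interaction, with 1 member and with 2 under library totals alone, and from 1 to 2 when 1 library was left out. No member that passed changed direction under any alternative tried. Scaling by library totals alone moved the median log2 fold change of all genes by 0.18 in DAXX_KO against WT in control cells, by -0.11 in the DAXX_KO etoposide response and in the DAXX_KO interaction, and by 0.12 in the difference between the knockouts, so shifts of this size in these comparisons depend on the scaling. Replicate numbers did not pair the libraries. The deviations of libraries with the same number correlated at -0.22 to 0.05 over 36 pairs, and a library was closest to its own number in 32 of 144 comparisons. With the replicate number as a block, the ATRX_KO interaction passed for 5 members in place of 7, without MMP14 and MMP1 (edgeR adjusted p = 0.0624 and 0.0706), and the calls of MMP15 in ATRX_KO control cells (0.0551) and of ADAMTS7 in the DAXX_KO etoposide response (0.0708) were lost. The MMP1 interaction was also lost without the filter (0.0961) and with DESeq2 (adjusted p = 0.0677). With only the compared groups in the fit, 9 calls had no value, since the member did not pass the filter there. They were ADAMTS13 in DAXX_KO control cells, ADAMTS13 and ADAMTS15 in DAXX_KO with etoposide, MMP15 and MMP24 in ATRX_KO control cells, ADAMTS7 in the etoposide response of both knockouts, and ADAMTS13 and MMP24 in the difference between the knockouts. Depth limits the members with few counts, MMP15, MMP24, ADAMTS13 and ADAMTS15, MMP1 in the DAXX series, ADAMTS7 in both knockouts and in DAXX_WT control cells, and ADAMTS2 outside ATRX_KO.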
